A study of Homo sapiens with 4 samples.

Results

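The G1 cyclins, the cyclin-dependent kinases (CDKs) that they activate and the CDK inhibitors were examined in MV4-11 cells with and without knockdown of ANP32B. The group was chosen by gene symbol and held 10 genes: the inhibitors CDKN1A, CDKN1B, CDKN2C and CDKN2D, the cyclins CCND2, CCND3 and CCNE1, and the kinases CDK4, CDK6 and CDK2. All 10 were among the 18885 genes of the expression table, and all 10 were among the 16937 genes with at least 1 TPM (a level scaled by transcript length and library total) in at least 2 libraries, which were tested. MV4-11 is an established human acute myeloid leukemia (AML) line of monocytic type that carries a KMT2A rearrangement. RNA was sequenced from 2 NC libraries and 2 sh-ANP32B libraries, in which ANP32B, a nuclear histone chaperone of the acidic leucine-rich ANP32 family, was targeted by a short hairpin RNA (shRNA). The labels name no shRNA for the NC libraries and no drug for any library, whereas the study's text speaks of a control hairpin, sh-NC, and of lentiviral lines selected with puromycin. The knockdown columns are headed S3, read here as the study's hairpin sh-ANP32B#3, so the comparison rests on 1 hairpin. The study's methods speak of independent repeats of its experiments in general, but no source used here says that the 2 libraries of a group came from separate cultures, so each p-value measures only the spread between these libraries, which may be technical.

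In G1, D-type cyclins bind CDK4 or CDK6 and E-type cyclins bind CDK2, and both kinds of kinase phosphorylate the RB protein, which releases E2F transcription factors and lets the cell enter S phase. The INK4 inhibitors (CDKN2C encodes p18, CDKN2D encodes p19) bind CDK4 and CDK6 and keep D-type cyclins off them, while the CIP/KIP inhibitors (CDKN1A encodes p21, CDKN1B encodes p27) bind cyclin-CDK complexes and block CDK2 above all. In myeloid cells CDK6 and CCND2 or CCND3 are the usual partners, and p21 is known to rise when monocytic leukemia cells are driven to mature.

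In hg38 (GENCODE 44), 4 of the 10 genes lie on chromosome 12: CCND2 (chr12:4269771-4305353), CDKN1B (chr12:12685498-12722369), CDK2 (chr12:55966781-55972789) and CDK4 (chr12:57747727-57756013). CDKN1A (chr6:36676460-36687337) and CCND3 (chr6:41934934-42050357) lie on chromosome 6, and CDKN2D (chr19:10566460-10569059) and CCNE1 (chr19:29811991-29824312) on chromosome 19. CDKN2C lies at chr1:50960745-50974634 and CDK6 at chr7:92604921-92836573.

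The promoters of the called genes are shown first. MYC, E2F and DREAM, whose genes are described further on, act through short motifs in promoters. Whether they act on the promoters shown was not tested. RefSeq promoters, running from 250 bases before to 50 bases after a start, were found for 8 of the 10 genes, 13 promoters in all, on GRCh38.p14, and none was found for CCND2 or CDK2. Of the 5 genes called below, 4 had a promoter, each given here 5′ to 3′ on the gene's own strand, with capitals marking every match to a motif searched. The CDKN1A promoter lies at chr6:36678464-36678763 (plus strand), that of CDKN2D at chr19:10568930-10569229 (minus strand), that of CCNE1 at chr19:29811741-29812040 (plus strand) and that of CDK4 at chr12:57752261-57752560 (minus strand).
CDKN1A: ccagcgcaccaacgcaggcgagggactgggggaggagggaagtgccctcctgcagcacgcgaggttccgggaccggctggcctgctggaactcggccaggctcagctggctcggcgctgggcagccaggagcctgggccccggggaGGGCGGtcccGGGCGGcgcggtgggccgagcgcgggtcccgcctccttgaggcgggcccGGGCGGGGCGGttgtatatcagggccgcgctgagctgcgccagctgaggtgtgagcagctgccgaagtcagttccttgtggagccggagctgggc
CDKN2D: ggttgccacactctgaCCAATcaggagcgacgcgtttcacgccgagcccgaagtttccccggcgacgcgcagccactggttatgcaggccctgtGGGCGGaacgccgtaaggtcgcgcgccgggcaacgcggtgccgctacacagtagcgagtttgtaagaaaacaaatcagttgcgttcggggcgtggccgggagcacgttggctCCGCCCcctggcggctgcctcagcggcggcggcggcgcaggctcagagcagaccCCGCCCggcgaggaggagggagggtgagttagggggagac
CCNE1: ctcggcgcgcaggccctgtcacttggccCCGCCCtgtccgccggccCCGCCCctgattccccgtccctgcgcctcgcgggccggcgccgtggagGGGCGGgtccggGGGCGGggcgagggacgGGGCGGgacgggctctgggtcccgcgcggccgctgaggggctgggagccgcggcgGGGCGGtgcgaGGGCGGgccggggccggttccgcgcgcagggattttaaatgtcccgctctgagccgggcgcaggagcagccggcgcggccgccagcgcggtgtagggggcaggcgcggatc
CDK4: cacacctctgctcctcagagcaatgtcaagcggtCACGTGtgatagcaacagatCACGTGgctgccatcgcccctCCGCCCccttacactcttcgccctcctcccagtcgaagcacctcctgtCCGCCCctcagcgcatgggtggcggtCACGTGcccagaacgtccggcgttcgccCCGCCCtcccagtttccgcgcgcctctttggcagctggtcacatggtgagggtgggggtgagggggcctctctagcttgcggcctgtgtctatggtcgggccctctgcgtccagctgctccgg

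The capitals mark the E-box (CACGTG, bound by MYC-MAX), the GC box (GGGCGG, bound by Sp-family factors), the CCAAT box (CCAAT, bound by NF-Y), the E2F site (TTTCCCGC, TTTCGCGC, TTTGCCGC or TTTGGCGC) and the CHR (TTTGAA or TTCGAA, bound by the DREAM complex). Both strands were searched, so GGGCGG also appears as its reverse complement. The CDK4 promoter held 3 E-boxes, whose first bases lay at -216, -196 and -101 from the start, and 3 GC boxes. Single E-boxes were also found in 1 promoter of CDK6 and in 2 promoters of CDKN2C, genes that were not called. An E-box was found in 7.26% of all 35116 promoters of this length, and 3 or more in 0.094% of them (33 promoters), a count made after the CDK4 sequence had been seen. CDKN1A and CCNE1 held no E-box but 4 and 7 GC boxes. At least 1 GC box was found in 45% of all promoters, and the share with as many as these was not counted. The CDKN1A promoter was 74.3% G and C and that of CCNE1 81.0%, which makes these letters more frequent. The CDKN2D promoter held 1 CCAAT box and 3 GC boxes, where 34.6% of all promoters had a CCAAT box. No E2F site or CHR of these spellings was found in any of the 13 promoters, while 3.31% and 16.4% of all promoters held one. A match of letters is a description and not a binding site, and the absence of one says only that these letters were not in the window.

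The knockdown was checked first. ANP32B stood at 358 and 364 TPM in the NC libraries and at 54.1 and 49.3 TPM in the sh-ANP32B libraries, 14.3% of the NC mean. The table lists no counts, so the depth is unknown; the listed TPM of a library summed to between 997271 and 998546. A gene was called when its unadjusted p was under 0.05 and its log2 fold change, sh-ANP32B against NC on the log2(TPM + 1) scale, was past 0.5 in either direction, the limits the study set. By this rule 1833 of 16937 genes (10.8%) were lower and 3413 (20.2%) were higher, and the median log2 fold change over all genes was 0.08. Lower genes made up 34.9% of all calls, but 45.3% after median-of-ratios scaling and 50.7% after quantile normalization, which put the median of all genes at 0.01 and -0.04.

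Of the 10 G1 genes, 3 fell (CDK2, CCNE1 and CDK4), against 10.8% of all genes, and 2 rose (CDKN1A and CDKN2D), against 20.2% of all genes. The other 5 (CDKN1B, CDKN2C, CCND2, CCND3 and CDK6) did not pass the call. The median log2 fold change of the 10 was -0.37, and they ranged from -0.88 to 1.13. Without the fold limit, 8 of the 10 had an adjusted p (limma, Benjamini-Hochberg over all genes tested) under 0.05, where 45.7% of all genes did. CDK4, at -0.53, lay just inside the fold limit, and CCND2, at -0.47, and CDKN2C, at -0.46, lay just outside it.

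**Figure D1:**
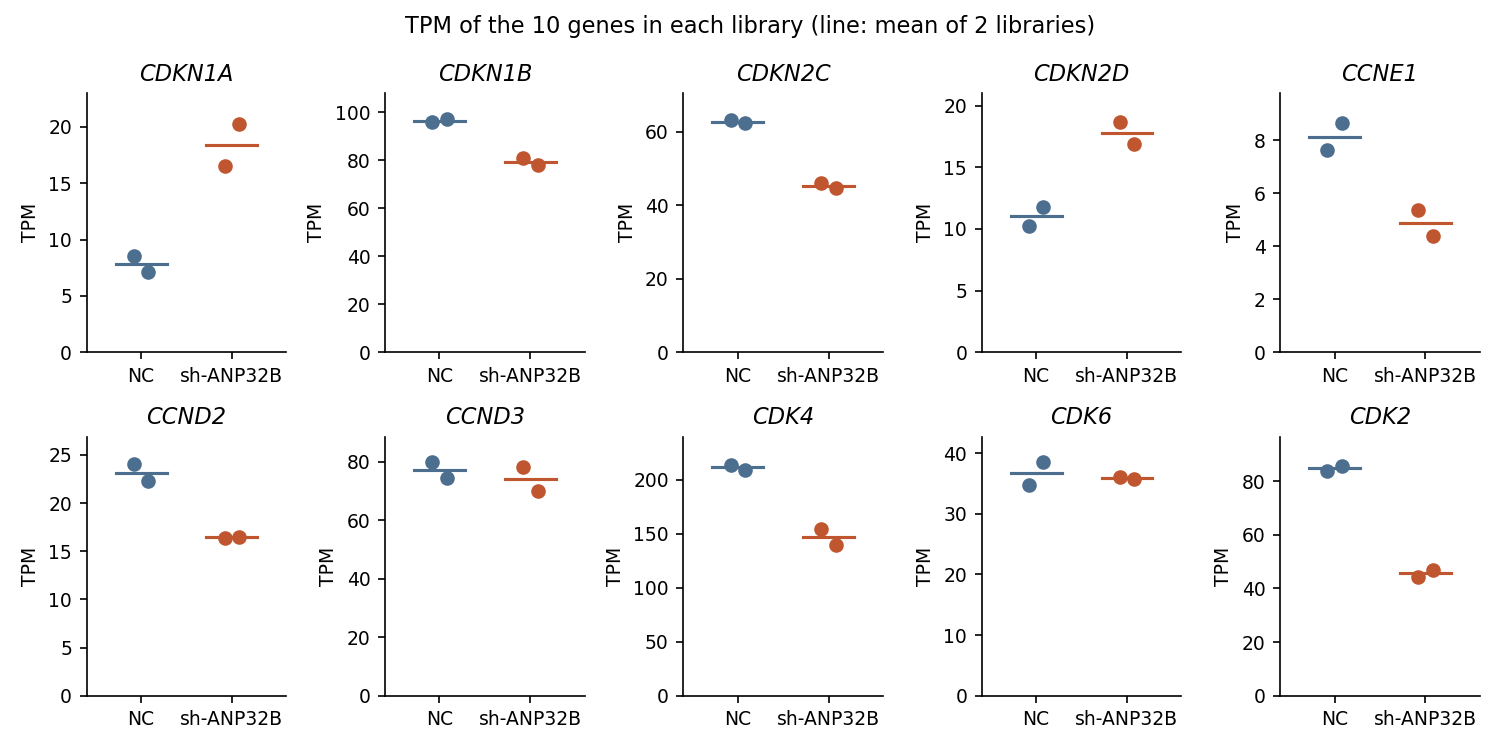
TPM of each G1 gene in the 2 NC libraries (blue) and the 2 sh-ANP32B libraries (orange), 1 panel per gene, with each vertical axis starting at 0, points for libraries and a line at the group mean. CDKN1A and CDKN2D lie higher and CDK2, CDK4 and CCNE1 lower in both sh-ANP32B libraries, and the groups overlap for CCND3 and CDK6.

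CDKN1A showed the strongest rise of the 10 genes. It stood at 8.56 and 7.15 TPM in the NC libraries and at 16.5 and 20.2 TPM in the sh-ANP32B libraries. Both sh-ANP32B libraries lay above both NC libraries, and the means were 7.85 ± 1.00 TPM and 18.4 ± 2.60 TPM (SD, n = 2 each). The ratio of the means was 2.34, and the log2 fold change was 1.13 with an SE of 0.14 and an adjusted p of 0.0021 (limma). An antisense RNA, DINOL, shares 146 exonic bases with CDKN1A, and the sources used here do not say whether reads were counted by strand, so reads from the pair cannot be told apart.

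CDKN1B, the other CIP/KIP gene, was the more abundant of the pair in every library. Its values were 95.9 and 97.0 TPM in NC and 80.8 and 78.0 TPM in sh-ANP32B. Both sh-ANP32B libraries lay below both NC libraries, at 82.3% of the NC mean, and the difference was small beside the fold limit. The log2 fold change was -0.28 (SE 0.05, adjusted p = 0.0057, limma), which did not pass the call. CDKN1A therefore made up 8.20% and 6.86% of the summed TPM of CDKN1A and CDKN1B in the NC libraries, and 17.0% and 20.6% in the sh-ANP32B libraries.

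Within the pair of INK4 genes among the 10 the values moved in opposite directions. CDKN2D stood at 10.2 and 11.8 TPM in NC and at 18.6 and 16.8 TPM in sh-ANP32B, with no overlap between the groups. It rose, with a log2 fold change of 0.64 (SE 0.11, adjusted p = 0.0068, limma), 1.61 times the NC mean. CDKN2C stood at 63.1 and 62.4 TPM in NC and at 46.0 and 44.7 TPM in sh-ANP32B, 72.2% of the NC mean and also without overlap. Its log2 fold change of -0.46 (SE 0.05, adjusted p = 0.0014, limma) missed the fold limit, and after median-of-ratios scaling it was -0.54, past that limit. CDKN2D made up 13.9% and 15.9% of the summed TPM of the pair in NC, and 28.9% and 27.4% in sh-ANP32B. The INK4 genes CDKN2A and CDKN2B are outside this sum. CDKN2A, at 242 and 244 TPM in NC and at 188 and 187 TPM in sh-ANP32B, was above both genes of the pair. An RNA with no symbol, ENSG00000290102, shares 617 exonic bases with CDKN2C on the other strand.

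The D-type cyclins, which bring CDK4 and CDK6 to RB, were both expressed. CCND2 was measured at 24.0 and 22.3 TPM in NC and at 16.4 and 16.5 TPM in sh-ANP32B. Its groups did not overlap, and the sh-ANP32B mean was 71.0% of the NC mean. The log2 fold change of -0.47 (SE 0.08, adjusted p = 0.0068, limma) was not called, but it was past the limit without NC replicate 2 (-0.52), after median-of-ratios scaling (-0.55) and after quantile normalization (-0.52). CCND2 shares exonic bases with a predicted gene on its own strand, ENSG00000285901 (999 bases). On the other strand it shares them with the antisense RNA CCND2-AS1 (162 bases) and with ENSG00000290063 (106 bases). A pseudogene, CCND2P1, is also annotated, so the level of CCND2 is uncertain to that extent.

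CCND3 was the main D-type cyclin of these cells in every library. Values of 79.9 and 74.6 TPM in NC and of 78.2 and 69.9 TPM in sh-ANP32B overlapped. The log2 fold change was -0.06, with a 95% interval from -0.24 to 0.12 and an adjusted p of 0.53 (limma), and its sign turned without sh-ANP32B replicate 2 (0.019). CCND3 made up 76.9% and 77.0% of the summed TPM of the pair in the NC libraries and 82.7% and 80.9% in the sh-ANP32B libraries. Pseudogenes of CCND3 (CCND3P1 and CCND3P2) are annotated, and ENSG00000223946, an RNA on the other strand, shares 24 exonic bases with CCND3, which leaves some reads uncertain.

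CDK4 was the most abundant of the 10 genes in all 4 libraries. It stood at 214 and 209 TPM in NC and at 154 and 139 TPM in sh-ANP32B. The groups did not overlap, and the sh-ANP32B mean was 69.4% of the NC mean. It fell by 0.53 on the log2 scale (SE 0.06, adjusted p = 0.0014, limma), a call that was lost without sh-ANP32B replicate 2 (-0.45) and after quantile normalization (-0.49). TSPAN31, a tetraspanin gene on the other strand, shares 1369 of the 3094 exonic bases of CDK4. It was listed at 9.02 and 9.46 TPM in NC and at 13.3 and 11.6 TPM in sh-ANP32B. As for CDKN1A, reads from the shared bases cannot be told apart, so the level of CDK4 is uncertain to that extent. A pseudogene, CDK4P1, is also annotated.

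CDK6, the other D-type kinase, stood at 34.8 and 38.6 TPM in NC and at 36.1 and 35.8 TPM in sh-ANP32B. Both sh-ANP32B values lay between those of the NC libraries. The log2 fold change was -0.03, with a 95% interval from -0.21 to 0.15 and an adjusted p of 0.79 (limma), and its sign turned without NC replicate 2 (0.046). The share of CDK6 in the summed TPM of CDK4 and CDK6 was 14.0% and 15.6% in NC and 19.0% and 20.4% in sh-ANP32B. CDK4 remained the larger of the pair throughout. An antisense RNA, CDK6-AS1, shares 86 exonic bases with CDK6.

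CDK2, the partner of E-type and A-type cyclins, showed the strongest fall among the 10 genes. It stood at 83.9 and 85.6 TPM in NC and at 44.4 and 46.8 TPM in sh-ANP32B. The groups lay far apart next to the spread within each, and the sh-ANP32B mean was 53.8% of the NC mean. It fell by 0.88 on the log2 scale (SE 0.05, adjusted p = 0.0002, limma). PMEL shares 89 exonic bases with CDK2 on the other strand and was under 2 TPM in every library, and ENSG00000258554 shares 565.

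CCNE1, which encodes cyclin E1, was the least abundant of the 10 genes in sh-ANP32B. It stood at 7.61 and 8.66 TPM in NC and at 5.38 and 4.39 TPM in sh-ANP32B. The lower NC value was above the higher sh-ANP32B value, and the sh-ANP32B mean was 60.1% of the NC mean. It fell by 0.64 on the log2 scale (SE 0.15, adjusted p = 0.021, limma). The log2 fold change was -0.55 without NC replicate 2 and -0.52 without sh-ANP32B replicate 2, close to the fold limit. In both of these fits the call still held, but it rests on the unadjusted p, and the adjusted p did not stay under 0.05.

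**Figure D2:**
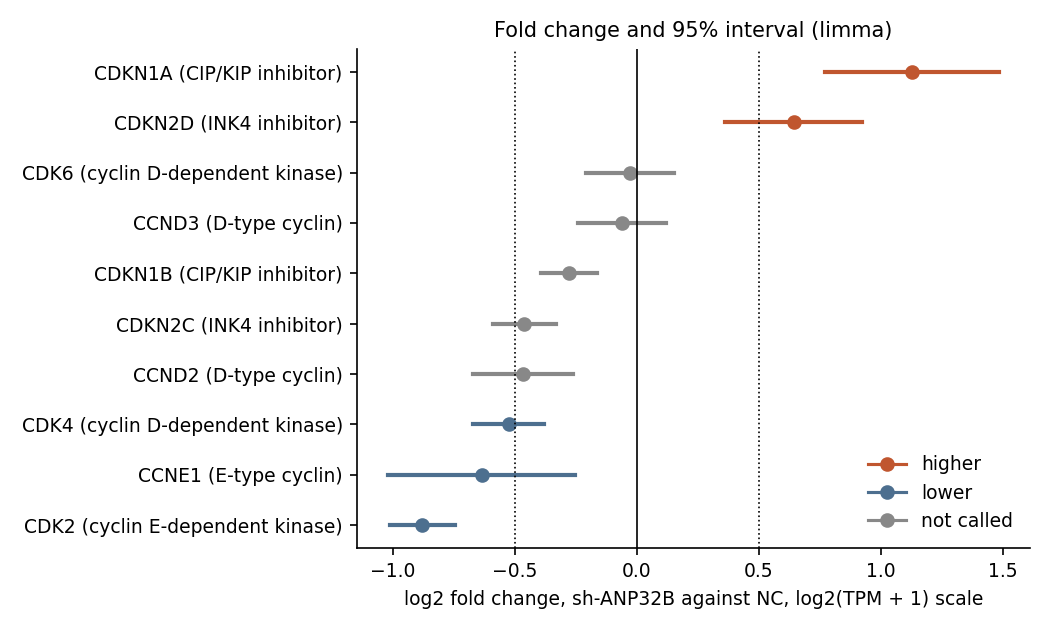
Log2 fold change of each G1 gene, sh-ANP32B against NC on the log2(TPM + 1) scale (horizontal axis), with its 95% interval from limma as a bar and dotted lines at the fold limits. CDKN1A (1.13) and CDKN2D (0.64) lie to the right, CDK4 (-0.53), CCNE1 (-0.64) and CDK2 (-0.88) to the left, and the intervals of CDK6 and CCND3 cross 0.

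Because TPM is corrected for transcript length, levels could be set side by side between genes. In NC the order by mean level was CDK4, CDKN1B, CDK2, CCND3, CDKN2C, CDK6, CCND2, CDKN2D, CCNE1 and CDKN1A, and among neighbours in that order the libraries overlapped for CCNE1 and CDKN1A alone. In sh-ANP32B the order was CDK4, CDKN1B, CCND3, CDK2, CDKN2C, CDK6, CDKN1A, CDKN2D, CCND2 and CCNE1. There the neighbours CDKN1B and CCND3, CDK2 and CDKN2C, and CDKN1A and CDKN2D overlapped. CDKN1A thus went from the tenth to the seventh place, and CDK2 from the third to the fourth. CDK4 exceeded 96.1% of the genes tested in NC and 94.0% in sh-ANP32B by mean level, and CDKN1A exceeded 40.3% and 55.6%.

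Summed over the 4 inhibitors, the TPM were 178 and 178 in the NC libraries and 162 and 160 in the sh-ANP32B libraries. Summed over the 6 cyclins and kinases, they were 444 and 438 in NC and 335 and 313 in sh-ANP32B. The sum over inhibitors was thus lower with the knockdown although CDKN1A and CDKN2D rose, since CDKN1B and CDKN2C are the larger terms. The ratio of these inhibitors to these cyclins and kinases was 0.4003 and 0.407 in NC and 0.484 and 0.511 in sh-ANP32B. Genes outside the chosen group do not enter the sums or the ratio. Among them, CDKN2A alone (242 and 244 TPM in NC, 188 and 187 TPM in sh-ANP32B) exceeded the sum over the 4 inhibitors. CCNE2, also left out, was above CCNE1 in every library. The ratio thus depends on the choice of genes and describes the chosen genes alone. The sums, the ratio and the 4 shares of pairs given above make 7 composition measures, and each kept the groups apart. They are built from the same TPM values as the single genes and are not separate results. The shares of CDK6 and CCND3 rose although these genes were nearly level (-0.03 and -0.06), since CDK4 (-0.53) and CCND2 (-0.47) were lower. An exact 2-sided permutation test gave 0.333 for each measure. That is the smallest p that 2 against 2 libraries allow, so none can pass 0.05.

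**Figure D3:**
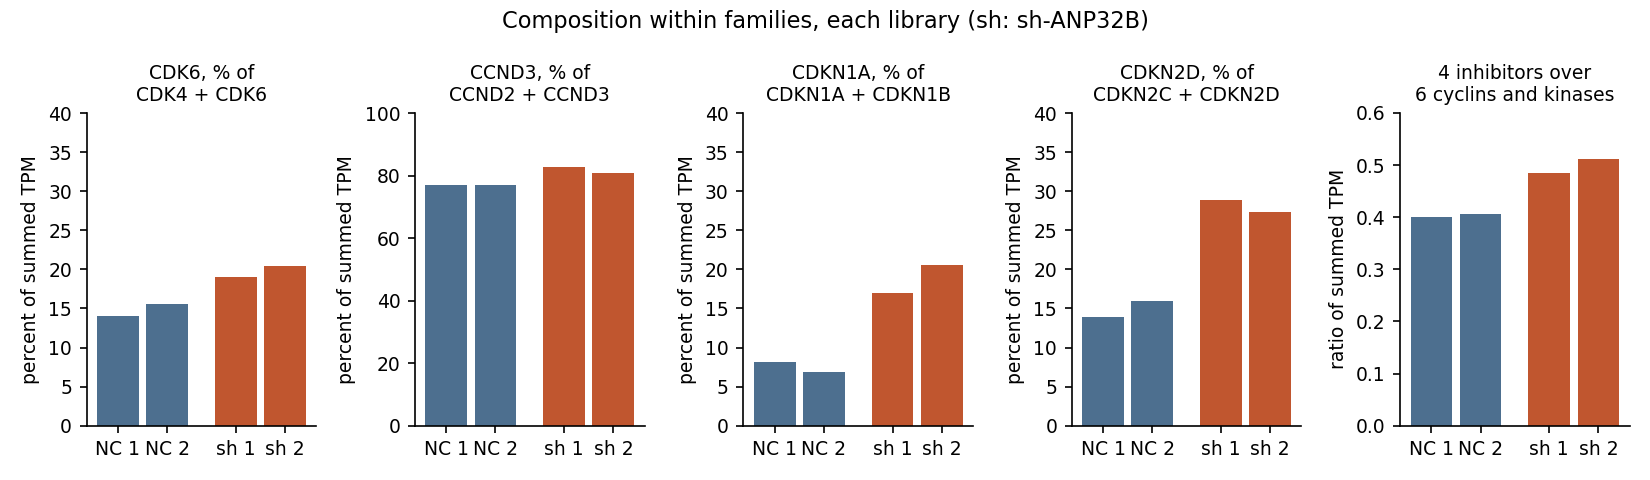
Composition of the G1 families in each library (NC blue, sh-ANP32B orange), with bars from 0 for the percent of summed TPM (first 4 panels) and the ratio of inhibitors to cyclins and kinases (last panel). The ratio is 0.4003 and 0.407 in NC and 0.484 and 0.511 in sh-ANP32B. The CDKN2D share is 13.9% and 15.9% in NC and 28.9% and 27.4% in sh-ANP32B. Genes outside the chosen group, CDKN2A among them, are left out of every panel.

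The remaining genes of the same families were read from a list. Among the other G1 cyclins, CDKs and inhibitors 5 of 6 were tested, of which 1 fell and 2 rose, few genes to set beside the 10.8% lower and 20.2% higher of all genes. CCNE2, the second E-type cyclin, stood at 19.1 and 19.3 TPM in NC and at 13.4 and 11.4 TPM in sh-ANP32B, and it fell by 0.60 on the log2 scale (adjusted p = 0.0072, limma). It was above CCNE1 in every library. CDKN2B, the INK4 gene that encodes p15, rose from 1.84 and 2.86 TPM to 6.22 and 5.42 TPM (log2 fold change 1.04, adjusted p = 0.011, limma). CDKN1C, the CIP/KIP gene that encodes p57, rose from 0.871 and 0.573 TPM to 1.74 and 2.19 TPM, a low level at which the fold on this scale is understated (log2 fold change 0.78, adjusted p = 0.037, limma).

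CDKN2A, the INK4 gene that encodes p16 and, in another reading frame, ARF, was far above the other inhibitors, at 242 and 244 TPM in NC and 188 and 187 TPM in sh-ANP32B. Its log2 fold change of -0.37 (adjusted p = 0.0009, limma) was not called, the table does not split the 2 products, and 593 exonic bases are shared with CDKN2B-AS1. CCND1, the D-type cyclin of many solid tumours, was at 1.02 and 0.894 TPM in NC and at 0.846 and 0.944 TPM in sh-ANP32B, too low to be tested.

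Genes that act on these complexes were taken from lists of their roles. Over all 8 lists, of which 7 are described here, 88 of 91 genes were tested, 38 fell and 6 rose, where 10.8% of all genes were lower and 20.2% higher. The median log2 fold change over these lists was -0.34, beside 0.08 over all genes. Of the 5 genes that phosphorylate CDKs or remove that phosphate, 2 fell: CDC25A, the phosphatase that activates CDK2 (-1.13), and WEE1, a kinase that inhibits CDKs (-1.10). The CDK-activating kinase genes CDK7, CCNH and MNAT1 were not called (-0.20, -0.07 and -0.30).

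Among 10 genes for the turnover of cyclins and inhibitors, 5 fell, beside 10.8% of all genes, and 0 rose, beside 20.2%, with a median of -0.47. DTL, which directs p21 to CUL4 ligases in S phase, stood at 53.02 and 52.91 TPM in NC and at 17.6 and 19.1 TPM in sh-ANP32B and fell by 1.48 on the log2 scale. CKS1B, a cofactor of SKP2 in p27 degradation, fell by 1.19, and SKP2 itself, at -0.50, lay at the fold limit. FBXW7, which targets cyclin E, and AMBRA1, which targets D-type cyclins, had values of -0.03 and -0.08 and were not called.

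Downstream of the kinases, 18 of 19 genes of the RB, E2F and DREAM list were tested, 8 fell, beside 10.8% of all genes, and 0 rose, beside 20.2%, with a median of -0.44. RB1 was nearly level, at 94.8 and 93.7 TPM in NC and 94.8 and 93.3 TPM in sh-ANP32B. RBL1, which encodes the pocket protein p107 and is itself an E2F target, fell by 0.59, and RBL2, which encodes p130, had a value of 0.36 and was not called. E2F1, the activator that RB holds, fell from 42.8 and 44.9 TPM to 19.66 and 17.97 TPM, by 1.18 on the log2 scale. E2F4, the main repressor E2F of quiescent cells, had a value of -0.08 and was not called.

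Of the 6 S and M phase cyclins and CDK1, 5 fell, beside 10.8% of all genes, and CCNA1 was not called. CCNA2, the S phase partner of CDK2, was at 145 and 143 TPM in NC and at 64.9 and 64.6 TPM in sh-ANP32B. CCNA2 fell by 1.14 on the log2 scale, CCNB1, the mitotic cyclin with the strongest fall here, by 1.18, and CDK1, its kinase, by 0.98. All 12 proliferation markers (MKI67, PCNA, TOP2A, MCM2 to MCM7, TYMS, RRM1 and RRM2) fell, with a median of -1.04 and a range from -1.33 to -0.74. Their summed TPM was 2775 and 2799 in NC and 1296 and 1287 in sh-ANP32B. The part of these differences in the values of CDK2, CCNE1 and CDK4 was not tested.

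**Figure D4:**
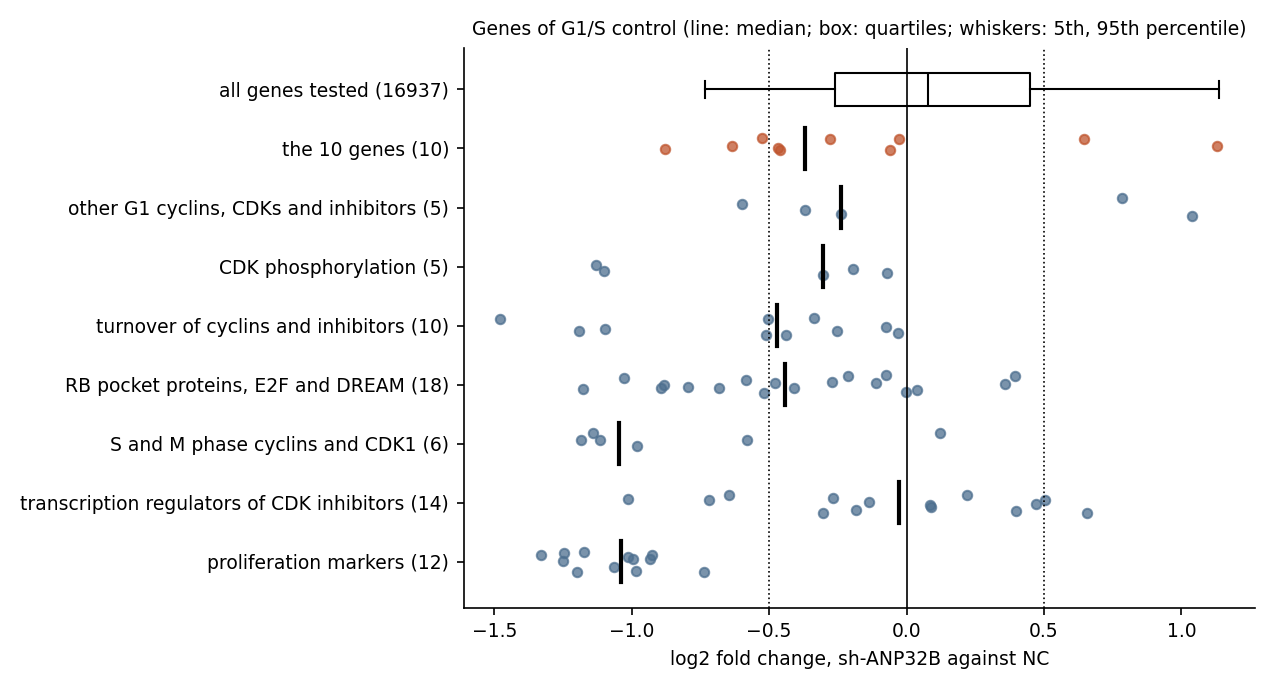
Log2 fold changes, sh-ANP32B against NC, of the 10 G1 genes (orange) and of the genes tested in 7 pathway lists (blue), with black lines at the medians, dotted lines at the fold limits and a box for all 16937 genes. The medians of the proliferation markers (-1.04) and the S and M phase cyclins (-1.05) lie to the left of that of the 10 G1 genes (-0.37), and the regulators of CDK inhibitors spread from -1.02 (TFAP4) to 0.66 (KLF6) around a median of -0.03.

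Among 14 transcription regulators of CDK inhibitors, 3 fell, beside 10.8% of all genes, and 2 rose, beside 20.2%. The other 9 were not called and ranged from -0.30 to 0.47, and the median of the 14 was -0.03. MYC, which represses CDKN1A and activates CDK4 in other systems, stood at 376 and 370 TPM in NC and at 240 and 236 TPM in sh-ANP32B and fell by 0.65 on the log2 scale. TFAP4, a MYC target that represses CDKN1A, fell by 1.02, and BMI1, a Polycomb repressor of the CDKN2A locus, by 0.72. CDKN2A itself had a value of -0.37 and was not called. KLF6, an activator of CDKN1A, rose by 0.66, and STAT5A, at 0.50, rose just past the limit. FOXO3, an activator of CDKN1B, had a value of -0.27 and was not called.

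The cells were also checked against cell type markers. Of 8 AML and MV4-11 markers 6 were listed. MEIS1, a homeobox gene of KMT2A-rearranged leukemia, fell by 0.61 on the log2 scale, PTPRC, the pan-leukocyte gene of CD45, rose by 1.15, and CD33, FLT3, HOXA9 and KIT were not called. CD34 and MPO were not among the genes listed, a list cut at a mean level of 0.5 TPM. Of 10 monocyte and macrophage markers 8 were listed, and all 8 were called higher, beside 20.2% of all genes, with a summed TPM of 517 and 511 in NC and 5590 and 5538 in sh-ANP32B, most of it LYZ. CD14 and FCGR3A were not listed, and CSF1R was called with an adjusted p of 0.083 (limma). The monocyte markers moved in the same direction as CDKN1A and CDKN2D, and their part in those values was not tested. In bulk RNA, a change in the number of cells of a type and a change in RNA per cell cannot be told apart.

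Markers of other cells were few among the genes listed. Of 5 T and NK cell markers 2 were listed, CD2 and NKG7, with a sum of 74.8 and 76.5 TPM in NC and 66.7 and 61.9 TPM in sh-ANP32B, nearly all of it NKG7. NKG7 was not called (-0.31), and CD2 rose from 0.521 and 0.442 TPM to 3.62 and 3.63 TPM (log2 fold change 1.64, adjusted p = 0.0017, limma). CD2 was under 1 TPM in both NC libraries and was tested only because of its sh-ANP32B values. CD3D, CD3E and GNLY were not listed. Of 5 B cell markers 3 were listed, with a sum of 10.8 and 11.5 TPM in NC and 4.10 and 6.04 TPM in sh-ANP32B. None of the 4 erythroid and none of the 5 fibroblast and epithelial markers was listed.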

How the data were processed

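Total RNA of MV4-11 cells was sequenced in 4 libraries, 2 NC and 2 sh-ANP32B, grouped by their labels. The authors aligned reads to hg38 with HISAT2 2.0.5 and deposited 1 table of TPM values by Ensembl gene ID, with no counts, so depth and counting error are unknown. The counter, its annotation and strand setting are not given in the sources used here, so reads from exonic bases that genes share cannot be told apart. The study's own test used counts, which the table does not hold. In its place limma 3.58.1 (R 4.3.3, eBayes with trend) was fitted to log2(TPM + 1) of 16937 genes (1 TPM or more in 2 or more libraries), with Benjamini-Hochberg adjustment over all of them. Fold changes on this scale understate those of low genes. Symbols and positions came from GENCODE 44 (17290 of 18885 IDs matched) and promoters from RefSeq.

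The 10 genes and all lists were chosen with earlier results of these data known. Named were all 10, the extreme called genes of each pathway list, a fixed set of partners and regulators (FBXW7, AMBRA1 and FOXO3 among them), overlapping genes, and the gene of most similar pattern, with WEE1, BMI1, STAT5A, CDK7, CCNH, MNAT1, E2F4, the proliferation markers and the cell type markers named beyond that rule after their values were seen. Same-numbered libraries were not paired (correlation of their deviations -0.02). Alternatives were a replicate block, another pseudocount, other filters, 2 scalings, other limits and leaving out each library. The values of 1 list of target genes and of 1 regulator are not reported here.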

Additional observations from a re-analysis of the deposited data

How the results depend on the processing

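CDKN1A, CDKN2D, CCNE1 and CDK2 kept their call and direction in all 10 alternative fits of each gene. Of the 10 G1 genes, 3 were lower and 2 higher; after median-of-ratios scaling 5 were lower, CDKN2C (-0.54) and CCND2 (-0.55) having been added. With a fold limit of 1 in place of 0.5, 0 were lower and 1 higher (CDKN1A), the pathway lists went from 38 lower and 6 higher to 18 and 2, and all genes from 1833 lower and 3413 higher to 283 and 1165, as a stricter limit leaves fewer calls. Leaving out each library gave CCND3 values of -0.14 to 0.019, above 0 without sh-ANP32B replicate 2, and CDK6 values of -0.10 to 0.046, above 0 without NC replicate 2, and neither was called in any fit. CDK4 lost its call after quantile normalization (-0.49) and without sh-ANP32B replicate 2 (-0.45), and CCND2 gained one after quantile normalization (-0.52) and without NC replicate 2 (-0.52). With the replicate number as a replicate block, 3 of the 10 genes were lower and 2 higher, and over all genes 1841 were lower and 3391 higher, so the block changed no call among the 10. Where 1 library was left out, the lone library of its group was assumed to vary like the other pair. The causes of these shifts were not tested. Depth is unknown, 2 libraries per group and 1 hairpin limit what can be said, and protein levels and kinase activity were not measured in these libraries.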

Other observations

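For each of the 10 genes, the gene whose pattern over the 4 libraries was most like it was found by the root mean square difference of mean-centred log2(TPM + 1) values. For CDK2 it was UNG, the uracil-DNA glycosylase, at 71.4 and 73.4 TPM in NC and 37.8 and 40.5 TPM in sh-ANP32B, with a difference of 0.0097. For CCNE1 it was CDC25B, a phosphatase that activates CDKs, at 23.5 and 26.3 TPM in NC and 17.4 and 14.5 TPM in sh-ANP32B (0.0100). For CDKN1A it was DYNLT3, a dynein light chain gene (0.012), and for CDK4 it was PHF10, a subunit of a SWI/SNF chromatin remodelling complex (0.0046). CDKN2C was nearest to ELAVL1, an RNA-binding protein gene (0.0039), CDKN1B to NAA30 (0.0050), CCND2 to CAMK2N2 (0.0065) and CDK6 to UBXN6 (0.0087). CDKN2D and CCND3 were nearest to genes with no symbol, ENSG00000268670 (0.0069) and ENSG00000275099 (0.0069).

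With 4 libraries in 2 groups many genes share a pattern. Within a difference of 0.1 lay 76 genes for CDKN1A, 413 for CCNE1, 428 for CDK2 and 2453 for CDKN1B. The nearest gene is therefore a description of these libraries alone.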
